A study of Mus musculus with 249 samples.

Results

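The regions described here are the 875 genomic windows of 40 kb that lie closest to the assembled centromeric ends of mouse chromosomes 12, 15, 16, 18 and 19, out of 68162 windows in the segregation table. They were chosen by chromosome and position, as all windows of these 5 chromosomes that start from 3 Mb to below 10 Mb in the mm9 assembly, which gives 175 windows on each chromosome. The 5 chromosomes were taken as those with ribosomal DNA near the centromere. The same number of windows from 40 to 47 Mb on the same chromosomes served as comparison windows, and the 2450 windows from 3 to 10 Mb on the other 14 autosomes served as a further reference.

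The data came from multiplex genome architecture mapping (GAM), a ligation-free method in which thin cryosections are cut through fixed cells, nuclear slices (nuclear profiles) are cut out with a laser into a tube, and the pooled DNA is amplified for sequencing. The 249 libraries all came from 46C mouse embryonic stem cells of the 129/Ola strain, a single line that carries a Sox1-GFP knock-in, and all cells were moved to a serum-free medium before harvest. The titles give 4 profiles cut into each tube, of which not every one holds part of a nucleus, so that a library held fewer nuclear slices on average and did not represent a single nucleus. Loci that lie close together in the nucleus tend to be found in the same thin slices, and linkage measures how far their co-detection exceeds that of independent loci.

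The libraries fell into 20 groups from 11 technical experiments, all on untreated cells. The full collection held 54 libraries. Volumes of amplification reagents were varied in protocol a (10 libraries), protocol b (11) and protocol c (10), and the number of PCR cycles was 25 (3 libraries), 23 (5) or 20 (4). Proteinase K was added at 1 ul (5 libraries) or 2 ul (6), and a large kit (11) was set against a small kit (12). Tubes were frozen after incubation (10) or left unfrozen (11), and frozen early (12) or late (11). Staining was tested with cresyl violet (16) against unstained sections (10), and 3 further experiments gave libraries titled unstained only, from the propidium iodide and freezing test (20), the eosin test (18) and the SYBR Gold test (10).

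Mouse chromosomes are telocentric, so the windows at the start of each assembled chromosome are the nearest measurable sequence to the centromere and its satellite DNA. Nucleolus organizer regions are arrays of ribosomal RNA genes, and in mice several of the arrays lie between the centromere and these windows. Around transcribed arrays the nucleolus forms, and chromosomes whose arrays contribute to one nucleolus are brought near each other, while the satellite blocks of different chromosomes gather in chromocentres that often touch nucleoli. Which chromosomes carry active arrays differs between mouse strains and was not measured in these data. None of the 1425 autosomal windows before 3 Mb was positive in any library, so neither the ribosomal arrays nor the satellite blocks themselves could be read.

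The edge of the assembly differs from the rest of the members in its sequence, and 3 stretches are shown because they lie in windows with the highest and some of the lowest detection values below. The start of chromosome 16, chr16:3000001-3079736 (79736 bases), and the start of chromosome 19, chr19:3000001-3078636 (78636 bases), carry the same sequence in opposite orientation. Their alignment held 78635 identical bases and no substituted base. The differences were stretches of 1099 bases and 2 single bases present only in chromosome 16 and 1 base present only in chromosome 19. One end of this copy is shown for both chromosomes (mm9), at the assembly edge of chromosome 16 (chr16:3000001-3000120, plus strand) and, because the copy is inverted, at its inner end on chromosome 19 (chr19:3078517-3078636, minus strand), and the sequences are identical over these 120 bases.
Chromosome 16: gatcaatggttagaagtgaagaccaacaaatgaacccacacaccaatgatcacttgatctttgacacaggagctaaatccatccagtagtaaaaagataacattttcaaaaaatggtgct
Chromosome 19: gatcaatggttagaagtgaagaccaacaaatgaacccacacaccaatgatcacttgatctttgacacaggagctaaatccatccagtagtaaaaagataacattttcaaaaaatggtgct
The third stretch, chr12:3109852-3110141 on the plus strand, lies in the member window positive in most libraries. Capitals mark the 250 bases that also occur, as words of 31 bases, in the first assembled window of chromosome 9.
Chromosome 12: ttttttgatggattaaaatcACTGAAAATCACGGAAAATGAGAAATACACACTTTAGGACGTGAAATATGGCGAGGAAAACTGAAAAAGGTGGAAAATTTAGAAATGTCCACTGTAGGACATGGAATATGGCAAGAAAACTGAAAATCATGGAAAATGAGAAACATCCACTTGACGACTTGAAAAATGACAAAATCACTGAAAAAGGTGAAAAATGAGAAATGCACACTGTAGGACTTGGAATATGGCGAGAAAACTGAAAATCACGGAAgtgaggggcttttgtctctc
The letters in capitals are those of the mouse major satellite, the tandem repeat of pericentromeric heterochromatin. They formed 3 overlapping runs, the longest of 170 bases, and the word at the centre of that run occurred 47 times in the chromosome 9 window. None of the 3 stretches overlaps an annotated gene or exon. The next protein-coding genes are Olfr161 on chromosome 16, 513 kb beyond the copy, Ighmbp2 on chromosome 19, 182 kb beyond it, and 1700012B15Rik on chromosome 12, 126 kb beyond the shown stretch.

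The copied windows were almost never called. On chromosome 16 the first window was positive in 3 of 249 libraries and the next window in 0, which allows a share of up to 1.2% (the limit of 3 counts in 249, not a Wilson interval). On chromosome 19 the first was positive in 0 libraries and the next in 2. Among sampled words of 31 bases in these 4 windows, at most 1.25% occurred only once in the assembly, where a unique word stands for a read with a single place to map. The search of the first 400 kb of all 19 autosomes found long shared stretches (at least 10 kb at 95% identity or more) in 1 of the 10 chromosome pairs among the 5, in 7 of the 70 pairs with 1 of them, and in 5 of the 91 pairs with none. On chromosome 12 the shared sequence spanned 44.2 kb and was shared with chromosome 5, on chromosome 15 it spanned 76.6 kb (chromosomes 4, 7 and 8), and on chromosome 18 it spanned 32.3 kb (chromosomes 4, 5 and 6).

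Away from these edges most members were detected often. The median member window was positive in 53 of the 249 libraries, with a middle range of 47 to 60, against 50 (45 to 56) for the comparison windows and 49 (43 to 55) for the corresponding windows of the other autosomes. For 53 of 249 libraries the 95% Wilson interval of the detection frequency runs from 16.7% to 26.8%, so single windows that differ by a few libraries cannot be ordered. Such intervals cover the sampling of libraries only, and since the table holds only calls of presence or absence, the read depth behind each call is unknown. By chromosome the median rose from 48 libraries on chromosome 12 and 50 on chromosome 15 to 54 on chromosome 16, 57 on chromosome 18 and 59 on chromosome 19.

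**Figure D1:**
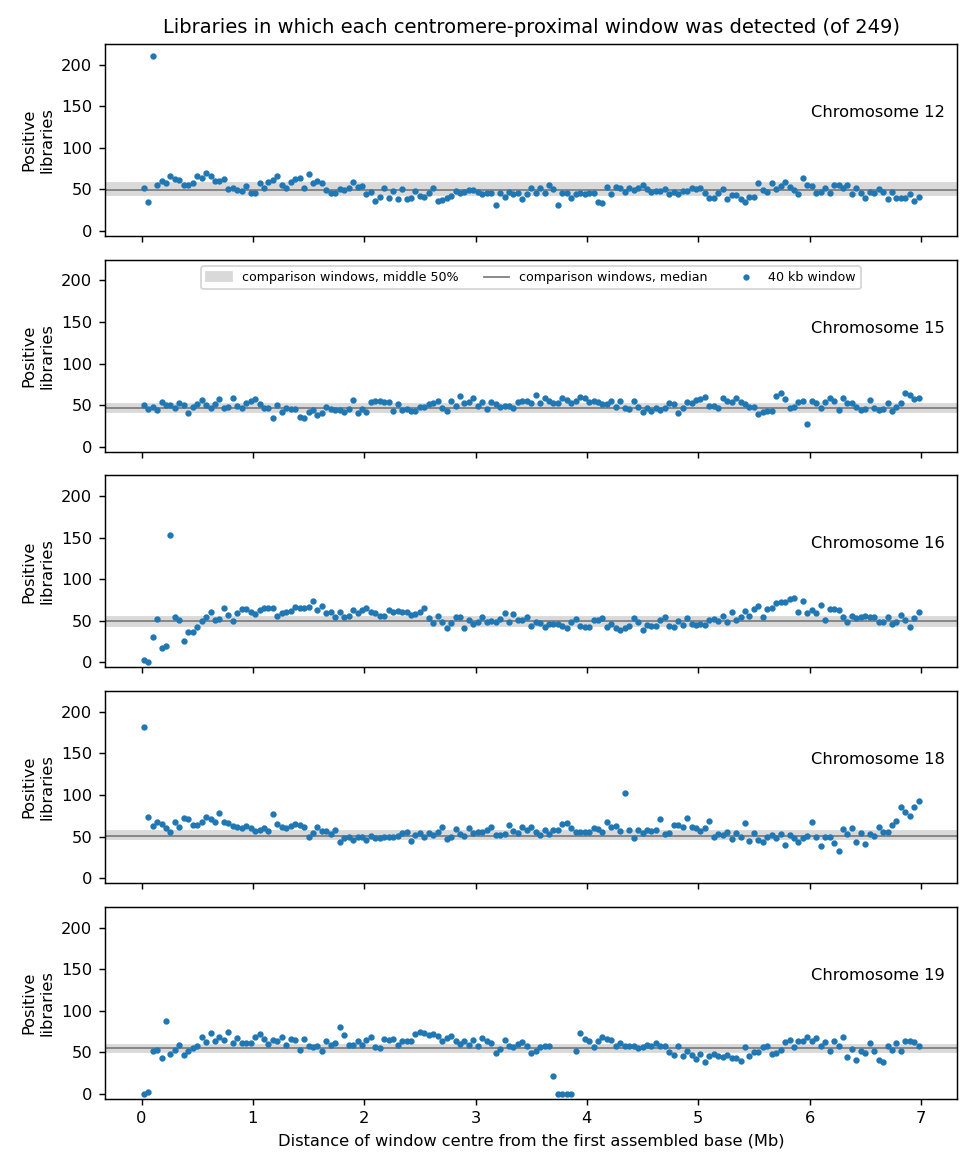
Number of libraries (of 249, y axis) in which each 40 kb centromere-proximal window was positive, against distance of the window centre from the first assembled base (Mb, x axis), with the median (line) and middle 50% (band) of the comparison windows from 40 to 47 Mb on the same chromosome. Most windows lie in or just above the band, 4 windows exceed 100 libraries, and the windows at or near 0 lie at the start of chromosomes 16 and 19 and in an unresolved stretch of chromosome 19.

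All 875 members can be accounted for by these counts. Of them, 6 were never positive: chr16:3040001-3080000, the first window of chromosome 19, and 4 windows in chr19:6720001-6880000 that consist of unresolved bases. A further 5 were positive in fewer than 25 libraries, the minimum used for linkage, and all 11 of these windows lie on chromosomes 16 (4 windows) and 19 (7 windows). The remaining 864 windows were used for linkage. Of the 10 members in which under 10% of words were unique, 5 were positive in fewer than 25 libraries and their median was 21.5 libraries. In the 599 members with 80% or more unique words the median was 54 libraries, and 1 was positive in fewer than 25.

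At the other extreme, 4 members were positive in more than 100 libraries. The window chr12:3080001-3120000, which holds the satellite-like stretch shown above, was positive in 211 libraries (84.7%, 95% Wilson interval 79.7 to 88.7%), while its neighbours were positive in 35 and 55. The first window of chromosome 18, chr18:3000001-3040000, was positive in 182 libraries (73.1%), and the next in 74. On chromosome 16, chr16:3240001-3280000 was positive in 153 libraries (61.4%), between neighbours at 20 and 55. The fourth, chr18:7320001-7360000, was positive in 102 libraries and overlaps Mpp7, which encodes a scaffold protein of cell junctions. In the first 3 of these, the share of unique words was 37.8%, 41% and 73%, and in the Mpp7 window it was 81%. Over-detection at the assembly edge was also present on the other autosomes, where 8 of the 70 windows in the first 200 kb exceeded 100 libraries, compared with 2 of 25 among the members.

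Chromosomes 15 and 19 had no such window. On chromosome 15 the window positive in most libraries was chr15:9840001-9880000, with 65 libraries, and the one in fewest was chr15:8960001-9000000, with 27 libraries. The latter overlaps Ranbp3l, its neighbours on both sides were positive in 55 libraries, and 41.3% of its words were unique. On chromosome 19 the highest value was 88 libraries at chr19:3200001-3240000. Taken chromosome by chromosome, the lowest members above the minimum of 25 libraries were chr16:3360001-3400000 (26 libraries, 9% unique words), chr12:6160001-6200000 (31 libraries, 85.5% unique words), chr18:9240001-9280000 (33 libraries, over Gjd4, a connexin gene) and chr19:8040001-8080000 (38 libraries, over Slc22a27). The chromosome 12 and 19 values were each shared by 2 windows. At the outer limit of 10 Mb the last members on chromosomes 12, 15, 16, 18 and 19 were positive in 41, 59, 60, 93 and 58 libraries, and the windows just outside in 32, 43, 50, 81 and 57.

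Members with more genes were detected in more libraries. Among the 860 members positive in 25 to 100 libraries, the 402 windows without a protein-coding gene were positive in 51.2 ± 8.18 libraries (mean ± SD over windows). The 313 windows with 1 gene were positive in 54.2 ± 9.23, the 88 with 2 genes in 58.5 ± 8.49, and the 57 with 3 or more in 62 ± 5.82. GC content rose with the gene count, from 41.4% to 49.2%. Across these windows the rank correlation of detection was 0.34 with GC content and 0.34 with gene count. Within chromosomes the correlation with GC ranged from -0.12 on chromosome 18 to 0.59 on chromosome 16, and that with gene count from 0.06 on chromosome 15 to 0.41 on chromosome 16. Neighbouring windows share nuclear slices and all windows share the same libraries, so no test was attached to these descriptions.

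Averages over single megabases showed the same tendency with exceptions. On chromosome 19, the megabase from 5 to 6 Mb holds 52 protein-coding genes at 49.4% GC and its windows were positive in 65.4 libraries on average. It contains Malat1 (chr19:5795690-5802671) and Neat1 (chr19:5824708-5845478), which encode abundant nuclear long non-coding RNAs, and their start sites lie in windows positive in 63 and 60 libraries. Fosl1, which encodes a subunit of the AP-1 transcription factor, lies in a window positive in 72 libraries. On chromosome 12, by contrast, the megabase from 6 to 7 Mb holds no protein-coding gene at 38% GC, and its windows averaged 44.4 libraries. On chromosome 16 the megabase from 4 to 5 Mb, with 22 genes, averaged 62.3 libraries, against 46.3 for that from 7 to 8 Mb, with 1 gene. Other stretches did not follow the gene count. The highest average of the 35 megabases was that of chromosome 18 from 3 to 4 Mb, with 4 genes at 41.4% GC (70.6 libraries, and 65.9 over its 24 windows positive in 25 to 100 libraries). On chromosome 19 the megabase from 6 to 7 Mb, with 35 genes at 50.5% GC, averaged 47.6 libraries, and 58.4 over its 20 windows positive in 25 to 100 libraries. Of the other 5, the 4 that consist of unresolved bases were never positive and chr19:6680001-6720000, with 80% unresolved bases, was positive in 22 libraries.

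All 25 genes of the list lay in member windows, and none of their start sites fell in a window positive in fewer than 44 libraries. On chromosome 12 the start-site windows were positive in 51 libraries for Dnmt3a (a de novo DNA methyltransferase), 54 for Pomc (the precursor of adrenocorticotropin), 55 for Asxl2 (a chromatin regulator linked to Polycomb) and 50 for Apob (the protein of low-density lipoprotein). The chromosome 15 genes were similar. Start-site windows were positive in 55 libraries for Lifr, the receptor subunit for the cytokine LIF that sustains embryonic stem cells, 54 for Nipbl, the cohesin loader, 56 for Ghr, the growth hormone receptor, and 49 for Dab2, an endocytic adaptor. Il7r, the interleukin 7 receptor of lymphocytes, was lowest at 44.

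On chromosome 16, the windows over Crebbp, a histone acetyltransferase, were positive in 56 to 66 libraries and those over the adjacent adenylate cyclase gene Adcy9 in 61 to 67. Abat, which encodes GABA transaminase, spanned 54 to 68 libraries. The 11 windows over Grin2a, a long gene for an NMDA receptor subunit, ranged from 43 to 60, and the single window over Mefv (pyrin) was positive in 52. On chromosome 18 the windows over Cul2, a ubiquitin ligase scaffold, were positive in 71 and 72 libraries and those over Crem, a cyclic AMP-responsive transcription factor, in 56 to 67. Zeb1, a repressor of epithelial genes, ranged from 47 to 61, Ccny (cyclin Y) from 44 to 60, and the 8 windows over Mpp7 from 48 to 102. On chromosome 19 the windows over Lrp5, a Wnt co-receptor, were positive in 62 to 73 libraries, those over Ahnak, a large scaffold protein, in 58 to 67, and those over Cpt1a, which admits fatty acids to mitochondria, in 47 and 59.

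Libraries differed widely in how much of the genome they held. They were positive in 3.4% to 45.2% of all windows (median 17.1%), and the members were detected at 0.457% to 56% (median 20.3%). The mean over the 249 libraries was 21.5 ± 11.8% (SD) for the members, 20.2 ± 11.5% for the comparison windows and 19.1 ± 9.63% for the corresponding windows of the other autosomes. A single chromosome varied more between libraries than the 5 together. On chromosome 12 the lowest, median and highest library detected 0%, 15.4% and 83.4% of members, with the middle 50% of libraries between 2.29% and 32.6%, and 7 libraries detected none. The corresponding values were 0%, 14.3% and 82.3% on chromosome 15 (29 libraries at 0), 0%, 16.6% and 89.1% on chromosome 16 (15 libraries), 0%, 17.1% and 93.7% on chromosome 18 (8 libraries) and 0%, 18.3% and 89.1% on chromosome 19 (19 libraries). Without the windows positive in over 100 libraries, the libraries with no member detected numbered 25 on chromosome 12, 23 on chromosome 16 and 29 on chromosome 18. The ranges of the 5 chromosomes overlapped almost entirely.

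On average the members were detected slightly more often than the comparison windows of the same chromosomes, by 1.37 percentage points (SE 0.6, 95% interval 0.195 to 2.54). The difference was above 0 in 136 libraries, below 0 in 111 and equal to it in 2 (sign-flip permutation test over libraries, two-sided, p = 0.024). GC content was 42.8% in the members and 40.5% in the comparison windows, and after subtracting from each window the mean of all windows in the same of 10 classes of GC content the difference was 0.309 points (SE 0.595, p = 0.607). With only windows of at least 80% unique words it was 1.16 points (p = 0.0685). The call was also lost without chromosome 16 (1.28 points, p = 0.0758) or 18 (1.05 points, p = 0.122), and without the libraries of the eosin test (1.17 points, p = 0.0603) or of the test of freezing after incubation (1.11 points, p = 0.0827). Against the corresponding windows of the other 14 autosomes the members were higher by 2.44 points (SE 0.594, 95% interval 1.28 to 3.61), in 151 of 249 libraries (p = 5e-05). That difference was 1.93 points after the GC adjustment (p = 0.00122), 1.44 points over windows positive in at least 25 libraries (p = 0.0182), 1.36 points without chromosomes 7 and 14 (p = 0.0244), where 152 of the windows positive in fewer than 25 libraries lie, and 0.971 points over windows with at least 80% unique words (p = 0.134). These p-values cover the spread between libraries, not that between chromosomes. Mean detection at 3 to 10 Mb was 19.9% (chromosome 12) to 23.4% (chromosome 18) among the 5. Among the other 14 autosomes it was 10.1% (chromosome 14) to 25.5% (chromosome 11), so the 2 sets overlapped.

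By chromosome, no member set passed the test against its own comparison windows. Among all 19 autosomes 3 differed after Benjamini-Hochberg adjustment (15.8%), chromosomes 7 and 11 upwards and chromosome 14 downwards, and 0 of the 5 chromosomes were among them, nor did any of the 5 have an unadjusted p under 0.05. The largest difference among the 5 was on chromosome 18, where 23.4% of members and 20.8% of comparison windows were detected (2.64 points, SE 1.43, unadjusted p = 0.0662, adjusted p = 0.157, higher in 130 libraries and lower in 107). The differences were 1.74 points (SE 1.29) on chromosome 16, 1.51 (SE 1.41) on chromosome 15, 0.599 (SE 1.39) on chromosome 19 and 0.356 (SE 1.33) on chromosome 12, with adjusted p from 0.379 to 0.833. All 5 intervals included 0, and the upper bounds ranged from 2.97 to 5.44 points.

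Detection of the members was also compared between the protocols. The percent of members detected minus that of all other autosomal windows in the same library averaged 2.2 ± 8.1 points (SD) over the 249 libraries, from -17.3 to 28.5. The experiment means ranged from -0.193 in the reagent volume test (31 libraries) to 4.79 in the PCR cycle test (12 libraries), with SDs between libraries of 4.98 to 10.2, and the permutation test of the F statistic over the 11 experiments gave p = 0.828. Among 11 contrasts between arms within experiments, 0 passed adjustment and 1 had an unadjusted p under 0.05 (permutation test of the difference in means). In that contrast the large kit gave -1.65 ± 4.33 points in 11 libraries and the small kit 5.01 ± 7.96 in 12 (p = 0.022, adjusted p = 0.242). In the small kit libraries 29.2% of members were detected on average and in the large kit libraries 13.6%. The largest differences, 8.07 points each, were those of 25 PCR cycles (3 libraries) and of 23 cycles (5 libraries) from 20 cycles (4 libraries). Their exact permutation p-values were 0.2 and 0.222, where the designs allow values down to 0.0286 and 0.00794. The study describes the 249 libraries as a batch from an independent biological replicate of the cells, and the labels name no separate cultures. These p-values therefore measure the spread between libraries, not between cultures.

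**Figure D2:**
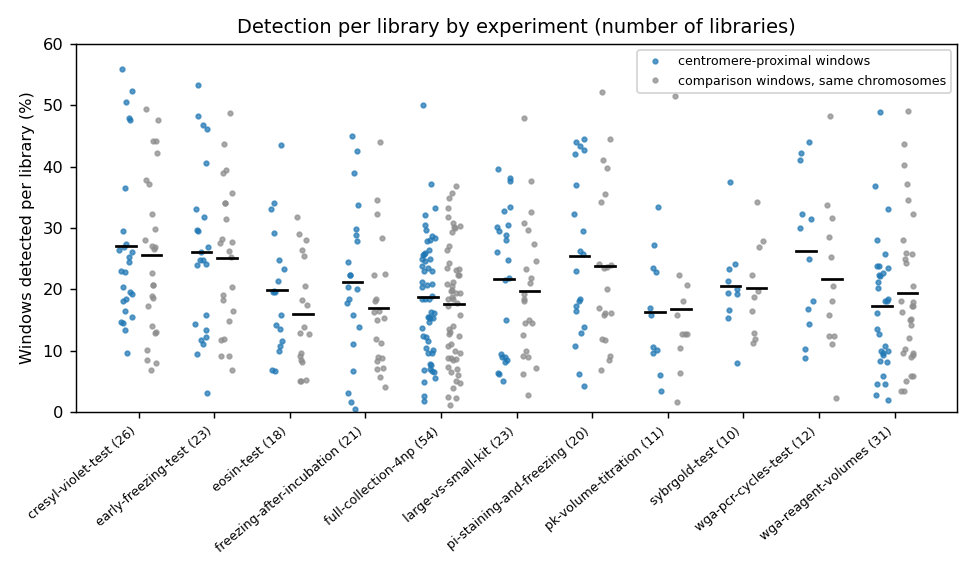
Percent of windows detected per library (y axis) in each of the 11 experiments (x axis, number of libraries in parentheses) for the centromere-proximal windows of the 5 chromosomes and the comparison windows from 40 to 47 Mb, with 1 point per library and bars at the means. The mean of the centromere-proximal windows ranged from 16.4% in the proteinase K titration to 27.1% in the cresyl violet test, and the points of all experiments overlap.

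The central question of these regions is whether they share slices between chromosomes more than other regions do. Linkage was measured as D′, the co-detection frequency of 2 windows minus the product of their detection frequencies, divided by its maximum or minimum possible size, so that 0 is independence and 1 the maximum. Over the 10 pairs among the 5 chromosomes, mean D′ between members was 0.0278 (SE 0.0136, jackknife over libraries), and between comparison windows 0.0159 (SE 0.014). These levels depend on the expectation used: with the expected detection scaled by the coverage of each library they were -0.0695 and -0.0757. In that setting the deviations of all autosomal windows sum to 0 in each library. Positive linkage within chromosomes then tends to pull linkage between chromosomes below 0. The unscaled levels contain the coverage that all windows of a library share, so neither setting settles the sign of D′ between chromosomes. The difference was 0.0119 (SE 0.0156, 95% interval -0.0187 to 0.0425), with contributions above 0 from 135 libraries and below 0 from 114 (sign-flip permutation test, p = 0.42). An excess was therefore not detectable with these libraries, and excesses of mean D′ over 0.0425 lie outside the interval.

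Differences of similar size were measured for pairs outside the set. Mean D′ at 3 to 10 Mb and at 40 to 47 Mb was 0.0303 and 0.0193 over the 70 pairs with 1 of the 5 chromosomes (difference 0.011, SE 0.00814), and 0.0346 and 0.023 over the 91 pairs with none of them (difference 0.0116, SE 0.00982). The excess among the 5 exceeded that of the 91 other pairs by 0.000289 (SE 0.0164, 95% interval -0.0319 to 0.0324, p = 0.987) and that of the 70 mixed pairs by 0.000902 (SE 0.0122, 95% interval -0.023 to 0.0248, p = 0.941). Of the 10 pairs, 6 (60%) had a higher D′ at the centromeric end, compared with 107 of all 171 pairs (62.6%). Coverage ranged from 3.4% to 45.2% between libraries and enters all of these values. With the expected detection scaled by the coverage of each library, the differences were 0.00616 (p = 0.681) for the 5 chromosomes, 0.0126 (p = 0.0476) for the mixed pairs and 0.0187 (p = 0.01) for the 91 other pairs.

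**Figure D3:**
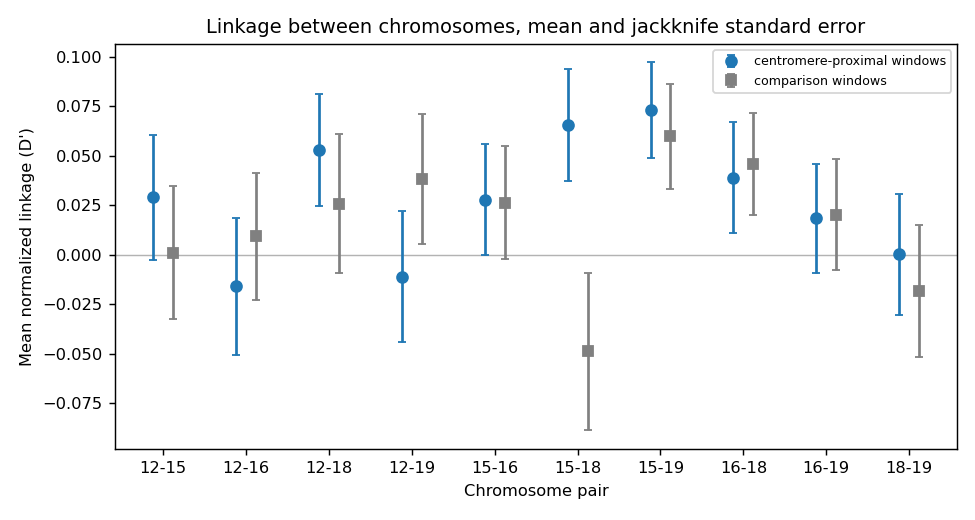
Mean normalized linkage D′ (y axis) between centromere-proximal windows (circles) and between comparison windows (squares) for the 10 chromosome pairs (x axis), with jackknife standard errors over 249 libraries. Without coverage scaling both series average slightly above 0 (0.0278 and 0.0159), and only for chromosomes 15 and 18 do the error bars lie clearly apart, at 0.0653 and -0.0489.

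Among single pairs, the highest D′ between members was 0.0729 (SE 0.0241) for chromosomes 15 and 19, where the comparison windows gave 0.0597 (SE 0.0266). Chromosomes 15 and 18 followed with 0.0653 (SE 0.0282), chromosomes 12 and 18 with 0.0529 (SE 0.0284) and chromosomes 16 and 18 with 0.0389 (SE 0.0279). Values for 12 with 15 (0.0288), 15 with 16 (0.0278), 16 with 19 (0.0183) and 18 with 19 (9.32e-05) followed, and 12 with 19 (-0.0112) and 12 with 16 (-0.0161) were below 0. Neighbours in this order differed by less than their standard errors.

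After adjustment over 171 pairs, 0 pairs differed between the 2 positions (0%), and 15 (8.77%) had an unadjusted p under 0.05, with 1 of the 10 pairs among them. That pair was chromosomes 15 and 18, where the difference was 0.114 (SE 0.0495, 95% interval 0.0171 to 0.211, p = 0.0163, adjusted p = 0.426). Its comparison value of -0.0489 was the lowest of the 10. Without chromosome 15 the mean difference over the remaining pairs was -0.00634 (p = 0.695), and without chromosome 18 it was -0.00567 (p = 0.754). For the other 9 pairs the differences ranged from -0.0495 (12 with 19) to 0.0279 (12 with 15), with adjusted p from 0.793 to 0.987. Among the 171 pairs, those with chromosome 7 rest on few windows at 40 to 47 Mb. Of its 175 windows there, 159 were never positive.

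Joint presence of chromosome ends was also counted directly. A chromosome end was called present in a library when at least 20% of its 175 windows were positive, a rule chosen after seeing the data. The centromeric ends of chromosomes 12, 15, 16, 18 and 19 were present in 109, 97, 109, 115 and 119 libraries. Chromosomes 16 and 18 were present together in 62 libraries, where 50.3 would follow from independence, and chromosomes 15 and 19 in 57 against 46.4. At 40 to 47 Mb the same pairs gave 63 against 49 and 57 against 43.4. All 5 ends were present together in 12 libraries, compared with 4.1 under independence, and none in 34 libraries, compared with 13.5. The comparison windows gave 11 against 3.26 and 33 against 16. The counts thus exceeded independence at both positions, and the part of library coverage in this was not tested for these counts.

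**Figure D4:**
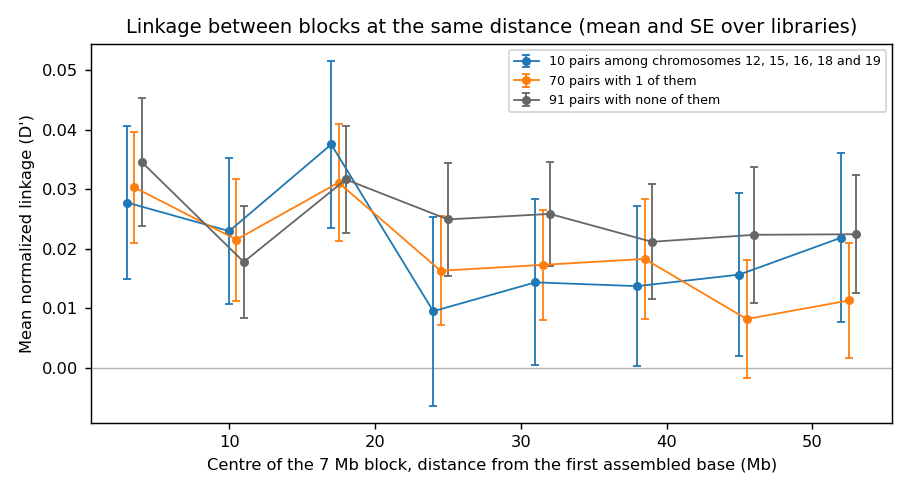
Mean D′ between 7 Mb blocks at the same distance on different chromosomes (y axis, with SE over libraries), against the distance of the block centre from the first assembled base (Mb, x axis), for the 10 pairs among the 5 chromosomes, the 70 mixed pairs and the 91 other pairs. For the 10 pairs the block nearest the centromere stands at 0.0278, below the third block at 0.0375 and within an SE of the second at 0.023.

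Blocks further along the chromosomes placed these values in context. For the 10 pairs, mean D′ was 0.0278 in the block from 3 to 10 Mb, 0.023 from 10 to 17 Mb, 0.0375 from 17 to 24 Mb and 0.0095 from 24 to 31 Mb, with SEs over libraries of 0.0123 to 0.0159. The 4 blocks from 31 to 59 Mb lay between 0.0137 and 0.0219. The centromeric block was thus not the highest of the 8. With comparison windows from 20 to 27 Mb the difference for the 10 pairs was 0.000888 (p = 0.948), and with those from 50 to 57 Mb it was 0.000379 (p = 0.983).

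At finer resolution, the 490 pairs of 1 Mb bins on different chromosomes had a mean D′ of 0.0277 and an SD of 0.049, with 75.5% of pairs above 0. The comparison windows gave a mean of 0.0163 and an SD of 0.0533, with 67.8% above 0. With the expected detection scaled by library coverage, the means were -0.0691 and -0.0751, and 13.9% and 12.7% of the pairs were above 0. For the reason given above, that setting by itself tends to lower linkage between chromosomes. The 3 highest pairs all joined chr19:9000001-10000000 with chromosome 15, at 4 to 5 Mb (0.14), 5 to 6 Mb (0.14) and 6 to 7 Mb (0.161), and they are adjacent bins rather than separate observations. For the first megabase of each chromosome with that of another, mean D′ was 0.0501 over the 10 pairs, with 9 above 0. The first megabase of the comparison windows gave -0.0119, with 5 above 0. With coverage scaling these means were -0.0284 (2 above 0) and -0.0965 (1 above 0). In the related comparison of the first 3 Mb, 3 to 6 Mb with 40 to 43 Mb, the difference was 0.0291 (SE 0.0201, p = 0.151). Over the 78 pairs that hold none of the 5 chromosomes and have usable windows in both positions it was 0.0109 (p = 0.371).

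**Figure D5:**
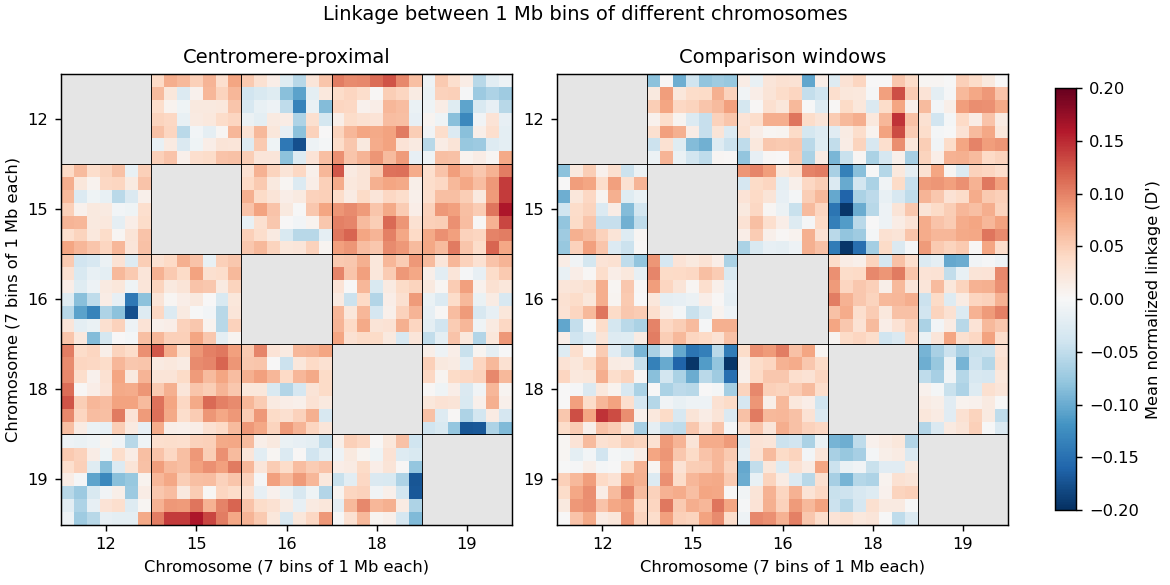
Mean D′ (colour) between bins of 1 Mb on different chromosomes among the 5 (x and y axes, 7 bins per chromosome in order from the centromeric end, same-chromosome squares left grey), for the centromere-proximal windows and the comparison windows. Values range from -0.175 to 0.161 in the former and from -0.195 to 0.144 in the latter, in patches that extend over neighbouring bins.

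Within chromosomes, linkage was many times stronger and was lower at longer distances up to 4 Mb on all 5 chromosomes. Between adjacent member windows D′ was 0.618 to 0.641 on the 5 chromosomes. At 240 kb to 1 Mb it was 0.362 to 0.402, at 1 to 2 Mb 0.238 to 0.302, and at 2 to 4 Mb 0.194 to 0.228. At 4 to 6 Mb it was 0.144 to 0.164 on chromosomes 12, 15, 16 and 19, but 0.236 (SE 0.0294) on chromosome 18, against 0.228 (SE 0.0259) there at 2 to 4 Mb. In the corresponding windows of the other 14 autosomes D′ was 0.211 (SE 0.0122) at 4 to 6 Mb and 0.242 (SE 0.0122) at 2 to 4 Mb. At 1 to 4 Mb the mean over the 5 chromosomes was 0.237 (SE 0.00978) for the members and 0.245 (SE 0.0104) for the comparison windows. They differed by -0.00818 (SE 0.0119, 95% interval -0.0314 to 0.0151, p = 0.566).

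By chromosome the difference had no common direction. Chromosome 12 had the lower value at its centromeric end, 0.225 (SE 0.0207) against 0.293 (SE 0.023), a difference of -0.0681 (SE 0.0294, 95% jackknife interval -0.126 to -0.0105). This interval excluded 0, while the sign-flip permutation test gave p = 0.0552 (adjusted p = 0.27). Chromosomes 18 (0.258 against 0.267) and 19 (0.213 against 0.234) were lower by less than 1 SE. Chromosome 15 (0.245 against 0.222) was higher by less than 1 SE, and chromosome 16 (0.244 against 0.211) by 0.0332 (SE 0.0292). Of the 18 autosomes with at least 40 usable windows in both positions, 1 (5.56%) passed adjustment, and 0 of the 5 did by the sign-flip test, with 0 of the 5 under an unadjusted p of 0.05.

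Single pairs of windows within chromosomes stood out from others at the same distance. On chromosome 16, chr16:6960001-7000000, in Rbfox1 (a neuronal splicing regulator), and chr16:8520001-8560000, in Abat, had a D′ of 0.648 (SE 0.0889), compared with 0.268 ± 0.0915 (SD) for the 2324 pairs 1.56 Mb apart on that chromosome. They were found together in 32 libraries, against 11.7 expected from 43 and 68. On chromosome 15, windows in Ghr and Plcxd3, chr15:3280001-3320000 and chr15:4400001-4440000, gave 0.658 (SE 0.0904) against 0.297 ± 0.0913. They were found together in 26 libraries, against 6.8 expected. On chromosome 19, chr19:9600001-9640000 and chr19:9840001-9880000 shared 36 libraries, with a D′ of 0.837 (SE 0.0684) against 0.46 ± 0.0902.

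On chromosomes 12 and 18 the highest pairs each contained a window positive in most libraries. The chromosome 12 pair joined the window positive in 211 libraries with chr12:6720001-6760000, positive in 31, and all 31 were shared, where 26.3 would follow from independence. The chromosome 18 pair joined the first window, positive in 182 libraries, with chr18:5480001-5520000, positive in 54, and 49 were shared against 39.5. In both, D′ was high (1 and 0.656) on a small surplus of libraries, because D′ is scaled by the largest co-detection the pair could reach. These pairs are the highest of many and carry no test.

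Across the 11 experiments the linkage difference between members and comparison windows varied in sign. It ranged from -0.164 in the proteinase K titration (11 libraries) to 0.167 in the test of freezing after incubation (21 libraries), and was -0.00822 in the full collection (54 libraries). Computed within single experiments, mean D′ was below 0 at both positions in every experiment. It ranged from -0.379 (SYBR Gold test) to -0.025 (cresyl violet test) for the members, and from -0.382 to -0.0615 in the same experiments for the comparison windows. The level over all libraries was 0.0278 for the members, so the values of single experiments are not on the same scale. The contributions of single libraries did not differ between experiments beyond their spread (permutation test of the F statistic, p = 0.986). With detection frequencies taken within each experiment, the mean difference over the 10 pairs was 0.0092 (SE 0.0144, p = 0.524).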

How the data were processed

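The 249 GAM libraries were sequenced by the study, and its methods state that reads were aligned to mm9 with Bowtie2 (version 2.1 in the submitters' processing notes), duplicates were removed with Samtools, and GAMtools called 40 kb windows positive from 4 reads on. These calls by the authors were deposited as 0 or 1 for each window and library, for libraries that passed their quality control. The table has no read counts, so depth is unknown and no depth-based interval was given. All columns were matched to samples by library name, and 0 columns were left unused. Groups follow the sample titles, which differ from the protocol text for the SYBR Gold and proteinase K libraries.

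Detection was the percent of windows positive per library. D′ was computed over windows positive in at least 25 libraries, and its mean over window pairs was split into contributions of single libraries. Differences were tested with two-sided sign-flip permutation tests over libraries (100000 resamples, smallest possible p 1e-05), with Benjamini-Hochberg adjustment over 19 autosomes or 171 chromosome pairs and a threshold of 0.05. Standard errors came from a jackknife over libraries or from the spread of library values, and 95% intervals use the normal distribution. Comparisons between arms used permutation tests, exact where an arm had fewer than 10 libraries. Chromosome lengths of the mm9 reference matched the table on all 19 autosomes. GC content, genes (GENCODE vM1), words of 31 bases sampled every 100 bases, and alignments of chromosome starts (minimap2 2.31) were taken from that reference. Python 3.11.15, numpy 2.4.6, scipy 1.17.1 and pandas 2.3.3 were used, and the tests were also run on simulated data. In the draws without linkage, libraries were shuffled separately on each chromosome, which removed the coverage that they share. For detection, the signs of the differences were drawn at random, as the test itself assumes. Effects of shared coverage were therefore not checked.

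The windows, the gene list and the rules were chosen with earlier results of these data known. Named windows were, on each chromosome, the one positive in most libraries and the one in fewest among those in at least 25. Named pairs were all 10 chromosome pairs, the intrachromosomal pair per chromosome (200 kb to 4 Mb apart) with the highest D′ relative to its distance, and the 3 highest pairs of 1 Mb bins. Alternatives covered the library minimum, GC content, low-coverage libraries, other comparison windows, the form of D′, and leaving out each experiment and chromosome.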

Additional observations from a re-analysis of the deposited data

Results flagged for a closer look

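Within groups of 4 to 10 libraries, a library was listed here when its distance to the nearest other library took an unusually large part of the range of its group (Dixon's 95% critical value). Chance alone lists about 1 in 20 groups, and 27 combinations of group and measure were examined. In protocol a of the reagent volume test, 1 of 10 libraries detected 48.9% of the members, and the next highest detected 23.8%. In the proteinase K group with 1 ul, 1 of 5 libraries detected the members more often than the comparison windows by 16.5 percentage points, and the next highest value was -2.06 points.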

How the results depend on the processing

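The difference in detection between members and comparison windows remained above 0 under 13 alternatives, from 0.309 to 2.33 points. It lost its call after the GC adjustment (0.309), over windows with at least 80% unique words (1.16, chosen after seeing the data), without chromosome 16 (1.28, p = 0.0758) and without chromosome 18 (1.05, p = 0.122). Leaving out 1 experiment gave 1.11 to 1.87 points, with the call lost without the eosin test (p = 0.0603) or the test of freezing after incubation (p = 0.0827). Against the other autosomes the difference lost its call over windows with at least 80% unique words (0.971), was 1.44 (p = 0.0182) with only windows in at least 25 libraries, and ranged from 2.17 to 2.76 without 1 experiment. The number of chromosomes that differed changed from 3 to 1 with only windows in at least 25 libraries, to 5 with 3 to 6 Mb against 40 to 43 Mb, and to 4 after the GC adjustment or with comparison windows at 50 to 57 Mb or 20 to 27 Mb. It was 3 whichever experiment was left out.

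The linkage difference of the 10 pairs among the 5 chromosomes passed no test under any alternative. That of the mixed pairs passed with detection scaled by coverage (0.0126, p = 0.0476) and with comparison windows at 50 to 57 Mb (0.0224, p = 0.0108), and that of the other pairs with scaled detection (0.0187, p = 0.01). For the 10 pairs it was below 0 without chromosome 15 (-0.00634) and without chromosome 18 (-0.00567), and ranged from 0.00846 to 0.0163 without 1 experiment. Its excess over the 91 other pairs was below 0 with windows in at least 40 libraries (-0.00216), with D not normalized (-7.38e-05), with detection scaled by coverage (-0.0126), within experiments (-0.00153), with comparison windows at 50 to 57 Mb (-0.0118) or 20 to 27 Mb (-0.00154), and without chromosome 15 (-0.0179) or 18 (-0.0173), and ranged from -0.00684 to 0.00736 without 1 experiment. Its excess over the 70 mixed pairs was below 0 with D not normalized (-8.28e-05), with scaled detection (-0.00643), within experiments (-0.00086), with 50 to 57 Mb (-0.022) and without chromosome 15 (-0.00707) or 18 (-0.0137), and ranged from -0.00505 to 0.00615 without 1 experiment. Within chromosomes the difference was above 0 with 50 to 57 Mb (0.0011) and without chromosome 12 (0.00681), and ranged from -0.018 to -0.000823 without 1 experiment. The cause of these changes was not tested. The count of called chromosome pairs was 0 under every alternative run. The count of called arm contrasts was also 0. For the PCR cycle contrasts (smallest possible p-values 0.0286, 0.0179 and 0.00794), and for the proteinase K contrast once a library is left out, the arms are too small to pass adjustment over 11 contrasts beside the other p-values, so this count says nothing about their stability. No paired analysis was possible because replicate numbers only follow the order of the samples and pair no libraries.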
